A study of Mus musculus with 9 samples.

Results

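The 9 genes described here encode the calcium/calmodulin-dependent protein kinases (CaM kinases) Camk2a, Camk2b, Camk2d, Camk2g, Camk1, Camk1d, Camk4, Camkk1 and Camkk2. They were taken by gene symbol from the 48526 genes of the count table, with no cutoff on their values. Earlier results of these data were known when the members were chosen. Each of the 9 passed the filter on low counts that left 18858 genes. The cells were neural stem cells (NSCs) from the subependymal zone (SEZ) of C57BL/6 mice, which the methods of the study give as wild-type C57BL/6J adults of 2 to 4 months, expanded as neurospheres with EGF and FGF. Differentiation was induced by plating on Matrigel without EGF while FGF was kept, and RNA was collected at induction (0 h) and 1 h and 6 h after it, with 3 replicates at each time point. For cells fixed soon after induction, the methods describe seeding in medium with both factors before the treatment. Whether the RNA samples were handled in this way is not stated. The later groups differ from 0 h in time, in EGF withdrawal and perhaps in the adhesive substrate, which cannot be told apart. The study sequenced these libraries to look for further transcripts controlled through intron retention, and counts per gene are described here. The sources used here do not say whether the replicates came from separate mice, cultures or pools, so the p-values measure the spread between these samples.

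CaM kinases are serine/threonine kinases that are switched on when calcium enters the cytoplasm and binds calmodulin. CaMKII is a holoenzyme assembled from the products of Camk2a, Camk2b, Camk2d and Camk2g, and it can stay active after the calcium signal because its subunits phosphorylate each other. CaMKI and CaMKIV work as monomers and are phosphorylated by CaM kinase kinases, and CaMKIV acts largely in the nucleus, where CREB is a well known substrate. Camk2a and Camk2b are the abundant CaMKII genes of mature neurons, whereas Camk2d and Camk2g are expressed in many tissues.

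The library totals were between 65871454 and 105592597 counts. Levels are given as CPM, the usual scaling of a gene's counts to a common library size, here the counts of the tested genes with TMM factors. The 9 NSC markers examined (Nes, Sox2, Msi1, Fabp7, Slc1a3, Vim, Prom1, Egfr and Pax6) were each detected at every time point and summed to between 6679 and 9573 CPM per library. The 10 neuron markers summed to between 989 and 1504 CPM at 0 h and between 1020 and 1584 CPM at 6 h, and Slc17a6 was at 0 in all libraries. Nearly all of that sum was Map2, which alone had 926 to 1464 CPM at 0 h and 881 to 1508 CPM at 6 h, while Dcx had 0.570 to 1.78 CPM and Tubb3 2.03 to 10.1 CPM over the 9 libraries. The 5 microglial markers summed to less than 1 CPM in each library, with 0.526 CPM as the highest sum. The sums were 1.97 to 5.27 CPM for 5 endothelial markers, 0.844 to 2.49 CPM for 4 oligodendrocyte markers and 39.6 to 93.3 CPM for 5 ependymal markers, of which Foxj1 had 36.4 to 90.9 CPM. In such bulk RNA, fewer cells that express a gene and less RNA of it per cell cannot be told apart.

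Libraries with the same replicate number resembled each other. After the mean of each time point was subtracted, their correlations across genes were between 0.733 and 0.80, against -0.462 to -0.314 for libraries with different numbers. The negative values follow from the subtraction, since deviations at a time point sum to 0. Only the positive values show the resemblance. Changes were therefore tested in an edgeR quasi-likelihood fit with the time point alone and in the same fit with the replicate number added, called the replicate block. A gene is called where its Benjamini-Hochberg adjusted p over the 18858 tested genes is under 0.05, and rose or fell is written of called genes. The comparisons at 1 h and 6 h share the 0 h libraries, and those of 6 h against 0 h and against 1 h share the 6 h libraries.

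Compared per kilobase of merged exons, Camk2b was the most abundant CaM kinase mRNA in NSCs, with 33.8 ± 11.4 CPM per kb at 0 h (SD, n = 3). Camk2g followed with 11.2 ± 0.50 CPM per kb and Camkk2 with 8.32 ± 2.88 CPM per kb. Camk2b was above every other member in each group of libraries, whereas the ranges of Camk2g and Camkk2 overlapped. Camk1 was at 5.53 ± 1.46 CPM per kb and overlapped with Camkk2. A lower tier, apart from Camk1 at 0 h, was formed by Camk4 at 2.59 ± 0.26, Camk2d at 2.48 ± 0.13, Camkk1 at 2.10 ± 0.63, Camk2a at 1.41 ± 0.91 and Camk1d at 1.21 ± 0.04 CPM per kb, and neighbours in this tier overlapped. At 6 h the order of the first 7 genes was the same, while Camk1d (0.936 ± 0.13 CPM per kb) and Camk2a (0.828 ± 0.55 CPM per kb) had exchanged the last places with overlapping ranges. The low place of Camk2d depends on the length used, since its merged exons cover 22493 bases and its longest transcript 5524. Without division by length, Camk2d had a mean of 55.9 CPM at 0 h, above the 33.0 CPM of Camk1.

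**Figure D1:**
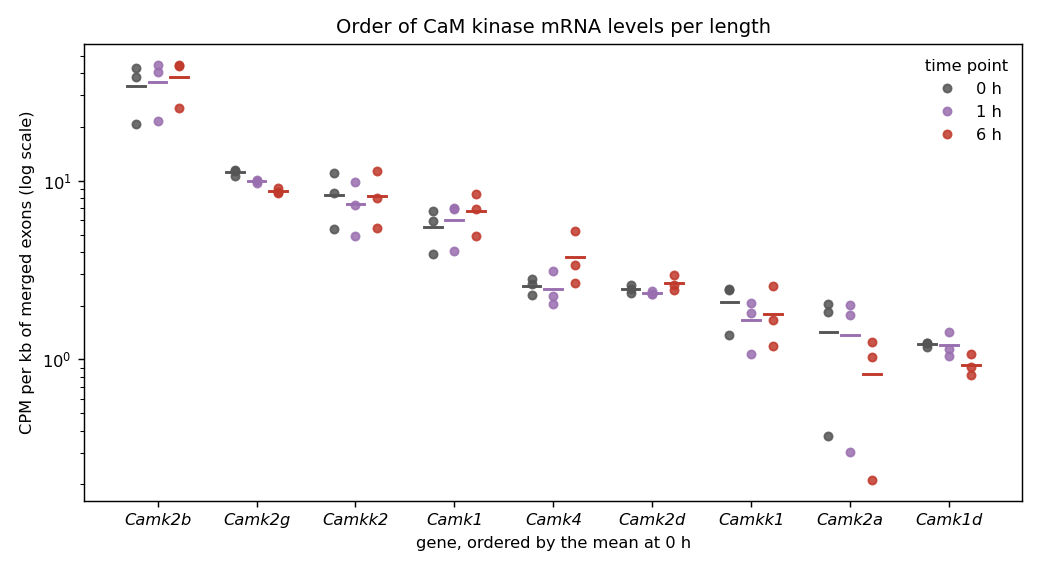
CaM kinase mRNA levels per length in the 9 libraries. Each point is a library, the short lines are means of 3 libraries, the colours are the time points, and the vertical axis is CPM per kb of merged exons on a log scale; Camk2b lies above all other genes, and for Camk2a 1 library of each time point, replicate 3, lies far below the other 2.

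At 6 h after induction 1 of the 9 members was called without the block, Camk2g, which fell. With the replicate block 6 members were called, of which Camk2b, Camk1 and Camk4 rose and Camk2a, Camk2g and Camk1d fell. Over all tested genes 2.42% were called without the block (1.46% higher and 0.955% lower) and 34.9% with it (17.4% higher and 17.5% lower). The median log2 fold change of the 9 members was -0.02 in both fits, against -0.0031 over all tested genes without the block and -7.8e-05 with it. Each of the 6 genes moved in its direction in 3 of 3 replicates. In 2 members, Camk2g and Camk1d, the CPM of the 6 h libraries did not overlap with those of the 0 h libraries, as was the case for 25% of the tested genes.

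**Figure D2:**
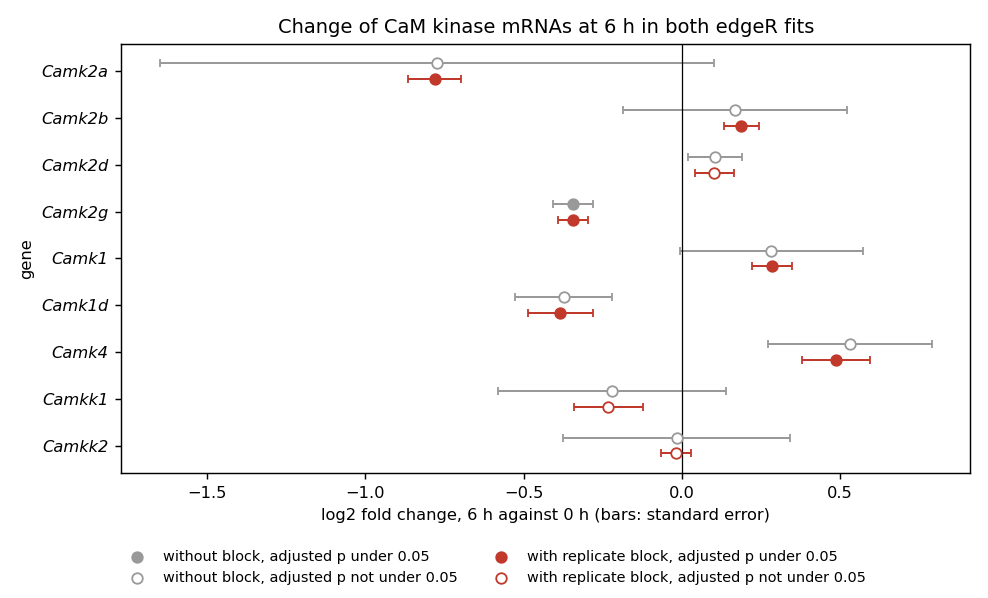
Log2 fold changes of the 9 CaM kinase genes at 6 h against 0 h. Grey points are the fit without the block and red points the fit with the replicate block, bars are standard errors, and filled points have an adjusted p under 0.05; the estimates of the 2 fits nearly coincide (Camk2a -0.77 and -0.78) while the standard errors are smaller with the block (0.88 and 0.08).

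Camk2a encodes the alpha subunit of CaMKII, the isoform best known from excitatory synapses. The gene (ENSMUSG00000024617) lies on chromosome 18 at 60925618 to 60988152 on the forward strand of GRCm38. It had 13.8, 15.2 and 2.78 CPM in replicates 1, 2 and 3 at 0 h, 13.3, 14.98 and 2.25 CPM at 1 h, and 7.67, 9.31 and 1.58 CPM at 6 h. Replicate 3 was thus the lowest at each time point, and in each replicate the 6 h library was below the other 2. With the block Camk2a fell to 0.582 of its 0 h level (log2 fold change -0.78, SE 0.08, adjusted p = 1.66e-05) and to 0.62 of its 1 h level (-0.69, SE 0.08, adjusted p = 4.77e-05). Without the block the same changes were -0.77 (SE 0.88, adjusted p = 0.741) and -0.72 (SE 0.87, adjusted p = 0.754). In fits with the block on 2 of the 3 replicates the fall from 0 h was called each time (adjusted p no higher than 0.00102). The study names Camk2a as representative of a cluster of genes whose introns it describes as detained in NSCs and spliced after induction. The counts per gene used here do not tell spliced from unspliced transcripts.

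The difference of Camk2a between replicates was larger than its change with time. The mean over the 3 time points was 11.6 CPM in replicate 1, 13.1 CPM in replicate 2 and 2.20 CPM in replicate 3, a 5.97-fold range. Of 13606 genes with a mean of at least 1 CPM, 1.48% had a range at least as wide, and the median range was 1.23-fold. Among the other members this range was between 1.06-fold for Camk2g and 2.06-fold for Camkk2.

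Camk2g encodes the gamma subunit, found in many tissues, and lies on the reverse strand of chromosome 14 at 20734875 to 20794088 (ENSMUSG00000021820). Its levels were 72.7, 67.8 and 73.9 CPM at 0 h, 64.9, 61.9 and 63.9 CPM at 1 h, and 54.8, 55.5 and 58.6 CPM at 6 h. The 3 groups did not overlap, and the level went down from 0 h to 1 h and from 1 h to 6 h in each replicate. Camk2g fell by 0.34 on the log2 scale from 0 h to 6 h in both fits, to 0.788 of the 0 h level (SE 0.06 and adjusted p = 0.0372 without the block, SE 0.05 and adjusted p = 0.000156 with it). The call without the block was lost in 8 of the 9 fits on 8 libraries (log2 fold changes of -0.38 to -0.32, highest adjusted p = 0.144). It was kept when 1 h replicate 3 was left out (adjusted p = 0.0419), and with the block it held in the fits on each pair of replicates (highest adjusted p = 0.00566).

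Camk2b encodes the beta subunit, which also binds actin filaments, and is located on the reverse strand of chromosome 11 at 5969644 to 6066362 (ENSMUSG00000057897). It had 346, 388 and 190 CPM at 0 h, 369, 406 and 196 CPM at 1 h, and 407, 401 and 232 CPM at 6 h. As for Camk2a, replicate 3 was the lowest at each time point, and the groups overlapped. Camk2b rose with the block to 1.14 times the 0 h level (log2 fold change 0.19, SE 0.05, adjusted p = 0.0173), whereas the fit without it gave 0.17 (SE 0.36, adjusted p = 0.885). The call was lost without replicate 1 (0.17, adjusted p = 0.128) and when trends in GC content and transcript length were removed (0.11, adjusted p = 0.107).

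Camk2d, which encodes the delta subunit, the main CaMKII isoform of heart, was the CaMKII gene without a call at 6 h against 0 h in either fit. It lies on the forward strand of chromosome 3 at 126596302 to 126846326 (ENSMUSG00000053819). Its levels were 52.9, 55.9 and 58.7 CPM at 0 h, 52.6, 54.5 and 52.5 CPM at 1 h, and 58.7, 54.8 and 66.8 CPM at 6 h. The log2 fold change at 6 h against 0 h was 0.10 with the block (SE 0.06, adjusted p = 0.219) and 0.11 without it (SE 0.09, adjusted p = 0.607). It passed the threshold with the block once trends in GC content and transcript length were removed (0.15, adjusted p = 0.0282).

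**Figure D3:**
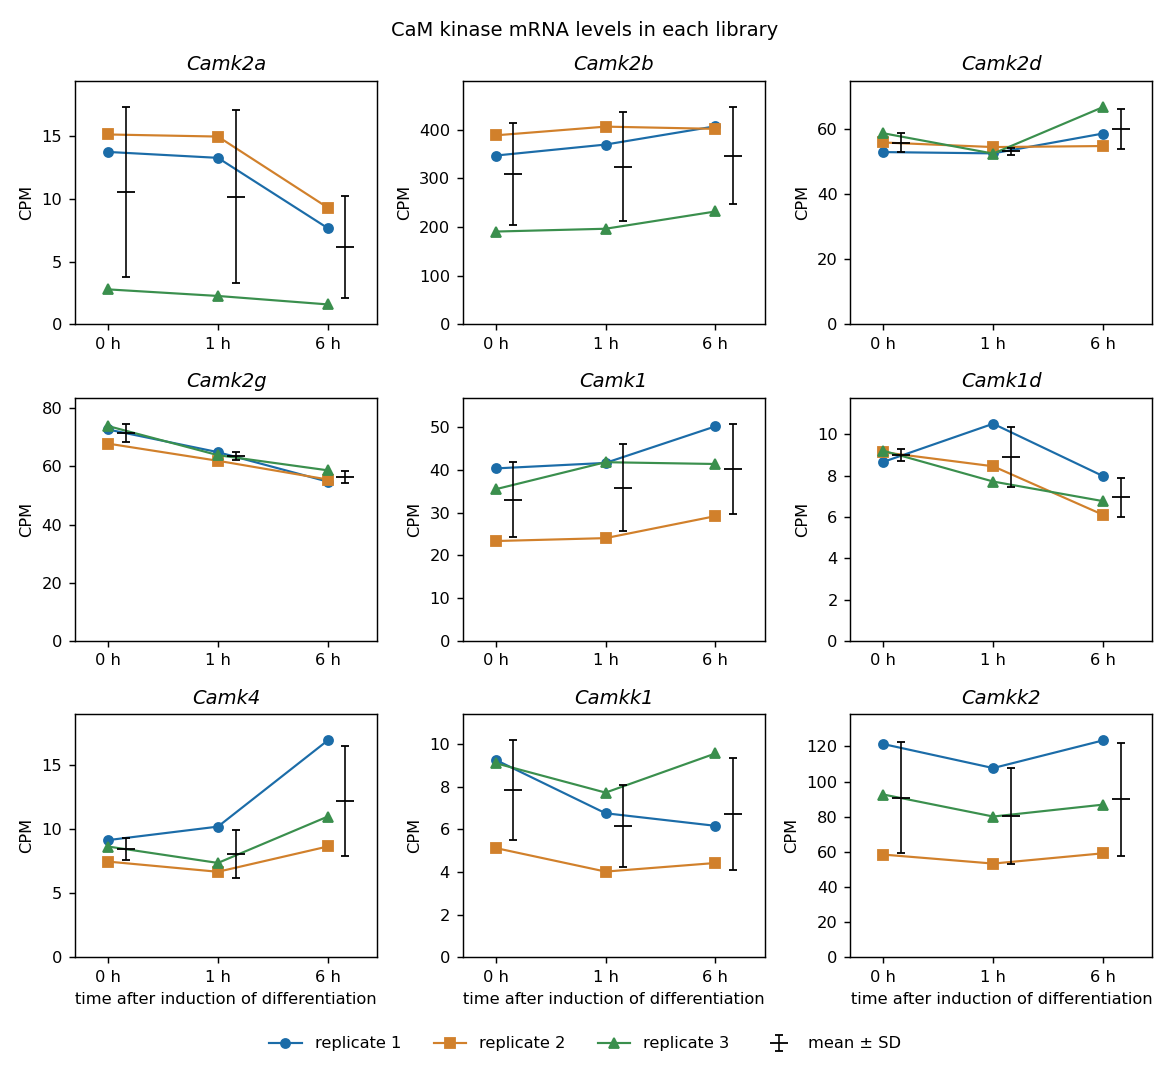
CPM of each CaM kinase gene in the 9 libraries. Coloured lines join the libraries with the same replicate number over time, black marks are the mean ± SD of 3 libraries, and each vertical axis starts at 0; in all 3 replicates Camk2a, Camk2g and Camk1d end lower at 6 h than at 0 h and Camk2b, Camk1 and Camk4 higher, and for Camk2a and Camk2b replicate 3 lies below the others throughout.

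Within CaMKII the summed level per length of the 4 genes was 48.8 ± 11.8 CPM per kb at 0 h, 49.1 ± 13.2 at 1 h and 50.3 ± 10.9 at 6 h (SD, n = 3). The sum therefore differed by less than the spread between replicates, while its make-up shifted in the same way in each replicate. Camk2b provided 67.9 ± 7.87% of the sum at 0 h and 74.6 ± 6.37% at 6 h, with 70.9%, 73.8% and 58.9% in replicates 1, 2 and 3 at 0 h and 78.5%, 78.1% and 67.3% at 6 h. Camk2g provided 24.1 ± 7.54% at 0 h and 18.2 ± 5.23% at 6 h, and it was lower at 6 h in each replicate (from 21.2% to 15.1%, from 18.4% to 15.4% and from 32.6% to 24.3%). Camk2a accounted for 2.67 ± 1.40% at 0 h and 1.53 ± 0.86% at 6 h, and Camk2d for 5.36 ± 1.75% and 5.598 ± 1.97%. These shares are a description without a test, since an exact permutation test cannot reach p under 0.05 with 3 libraries against 3, nor with 3 pairs.

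**Figure D4:**
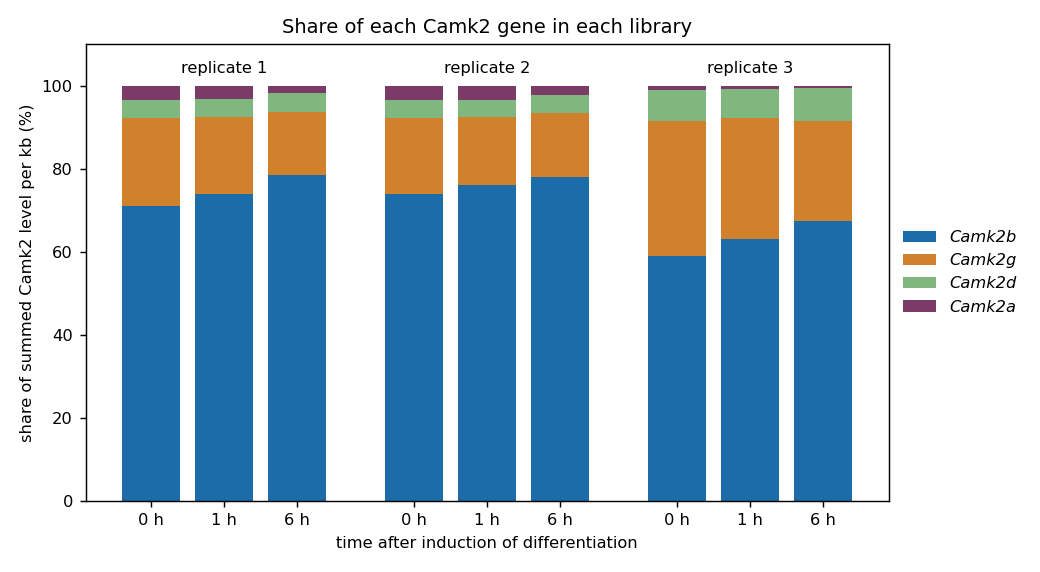
Share of each Camk2 gene in the summed CaMKII mRNA level per kb, in %. Each bar is a library, grouped by replicate and ordered by time; Camk2b is the largest part of every bar, between 58.9% and 78.5%, and in each replicate its part is larger and that of Camk2g smaller at 6 h than at 0 h.

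CaMKI, a cytoplasmic kinase with roles in neurite growth, is represented by Camk1 and Camk1d, and these genes moved in opposite directions. Camk1 (ENSMUSG00000030272) is on the reverse strand of chromosome 6 at 113334124 to 113343984. Its levels were 40.3, 23.3 and 35.5 CPM at 0 h, 41.6, 24.0 and 41.8 CPM at 1 h, and 50.2, 29.2 and 41.4 CPM at 6 h. Replicate 2 was the lowest at each time point, and in each replicate the 6 h library was above the 0 h library. Camk1 rose with the block to 1.22 times its 0 h level (log2 fold change 0.29, SE 0.06, adjusted p = 0.00344), and the fit without it gave 0.28 (SE 0.29, adjusted p = 0.701). The call with the block held in the fits on each pair of replicates (highest adjusted p = 0.0371). Camk1 overlaps Ogg1, a DNA glycosylase gene on the opposite strand, by 945 bases; Ogg1 had 1160 to 2305 counts per library, and the strand setting of the counting is not given in the sources used here, so that reads of the overlap could belong to either gene if strand was not used.

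Camk1d (ENSMUSG00000039145) encodes the delta isoform of CaMKI and is on the reverse strand of chromosome 2 at 5293457 to 5714515. It had 8.67, 9.14 and 9.21 CPM at 0 h, 10.5, 8.46 and 7.72 CPM at 1 h, and 7.98, 6.11 and 6.77 CPM at 6 h. All 6 h libraries were below the 0 h libraries. With the block Camk1d fell to 0.766 of its 0 h level (log2 fold change -0.38, SE 0.10, adjusted p = 0.0106), and the fit without it gave -0.37 (SE 0.15, adjusted p = 0.246). Without replicate 2 the call with the block was lost (-0.28, adjusted p = 0.162).

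The upstream sequences of Camk2b and Camk1, which rose with the block, and of Camk1d, which fell, are shown because these members moved in different directions. They are the bases before the RefSeq start site, 5′ to 3′ on the strand of the gene (GRCm38.p6), at chr11:6065749-6065998 for Camk2b, chr6:113343985-113344172 for Camk1 and chr2:5714763-5715012 for the first of the start sites of Camk1d. Capitals mark, on either strand, the CREB half-site TGACG, the GC box GGGCGG bound by SP factors, and the EGR motif GCGNGGGCG. For Camk1, 62 bases next to the start were left out because they fall in exons of GENCODE M21.
Camk2b: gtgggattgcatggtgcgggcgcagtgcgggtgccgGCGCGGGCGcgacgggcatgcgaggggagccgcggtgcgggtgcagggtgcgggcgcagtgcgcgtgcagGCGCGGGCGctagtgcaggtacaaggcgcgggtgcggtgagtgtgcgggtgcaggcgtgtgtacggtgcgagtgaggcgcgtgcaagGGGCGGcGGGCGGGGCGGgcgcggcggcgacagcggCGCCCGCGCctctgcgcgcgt
Camk1: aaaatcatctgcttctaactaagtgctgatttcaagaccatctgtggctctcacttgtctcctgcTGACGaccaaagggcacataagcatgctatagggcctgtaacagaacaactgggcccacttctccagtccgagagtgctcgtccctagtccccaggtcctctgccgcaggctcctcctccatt
Camk1d: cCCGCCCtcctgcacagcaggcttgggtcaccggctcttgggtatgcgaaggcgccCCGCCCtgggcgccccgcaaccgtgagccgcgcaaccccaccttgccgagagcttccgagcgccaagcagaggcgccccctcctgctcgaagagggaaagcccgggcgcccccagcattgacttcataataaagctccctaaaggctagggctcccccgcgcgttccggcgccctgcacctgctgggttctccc
The Camk2b window held 3 GC boxes and 3 EGR motifs, the Camk1 window 1 CREB half-site, and the Camk1d window 2 GC boxes. The Camk2b window lies inside the gene model of GENCODE M21 but in none of its exons. The GC box and the EGR motif share the letters GGGCG and can overlap. Of 32851 RefSeq promoter windows of 250 bases, 17.8% held the CREB half-site, 32.7% a GC box and 4.7% an EGR motif. Windows of 6 of the 9 members were examined. Those of Camk2a, Camk2g and Camk4 were not examined, so whether they hold these motifs was not tested. In the examined windows that are not shown (Camk2d, Camkk1, Camkk2 and the second start site of Camk1d) 1 to 3 GC boxes were found, with 1 CREB half-site in that of Camkk1. A match of letters is a description and not a binding site.

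Camkk1 and Camkk2 encode the kinases that phosphorylate CaMKI and CaMKIV, and Camkk2 also phosphorylates AMPK. Camkk2 (ENSMUSG00000029471, reverse strand of chromosome 5 at 122731170 to 122779409) had 121, 58.5 and 92.7 CPM at 0 h, 108, 53.4 and 80.1 CPM at 1 h, and 123, 59.2 and 86.9 CPM at 6 h. It was lower at 1 h than at 0 h in each replicate and higher at 6 h than at 1 h in each replicate, with replicate 2 lowest throughout. At 6 h against 0 h the log2 fold change was -0.02 in both fits (SE 0.05, adjusted p = 0.819 with the block and SE 0.36, adjusted p = 0.992 without it). Camkk1 (ENSMUSG00000020785, forward strand of chromosome 11 at 73019008 to 73042073) had 9.25, 5.12 and 9.09 CPM at 0 h, 6.75, 4.02 and 7.72 CPM at 1 h, and 6.16, 4.42 and 9.55 CPM at 6 h. Its log2 fold change at 6 h against 0 h was -0.23 with the block (SE 0.11, adjusted p = 0.117) and -0.22 without it (SE 0.36, adjusted p = 0.840), and the replicates did not move together, since replicate 3 was above its 0 h level. The same comparison passed the threshold with the block when trends in GC content and transcript length were removed (-0.32, adjusted p = 0.0297) and when replicate 3 was left out (-0.40, adjusted p = 0.0162).

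Camk4, which encodes CaMKIV, the member closest to CREB-dependent transcription, showed the largest rise among the members. It lies on chromosome 18 at 32934931 to 33191228 on the forward strand (ENSMUSG00000038128). Its levels were 9.17, 7.49 and 8.66 CPM at 0 h, 10.2, 6.69 and 7.38 CPM at 1 h, and 17.0, 8.67 and 11.0 CPM at 6 h. In each replicate the 6 h library was the highest, and replicate 1 at 6 h was above all the others. Camk4 rose with the block to 1.40 times its 0 h level (log2 fold change 0.49, SE 0.11, adjusted p = 0.00357), and the fit without it gave 0.53 (SE 0.26, adjusted p = 0.337). Without replicate 1 the call with the block was lost and the change was smaller (0.29, adjusted p = 0.0664). Against 1 h the rise was 0.57 with the block (SE 0.11, adjusted p = 0.00137), and this call held in the fits on each pair of replicates (highest adjusted p = 0.00732).

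At 1 h after induction no member was called in either edgeR fit, and without the block the adjusted p of each member was 0.9998. At an unadjusted p under 0.05 there was 1 member without the block and 3 with it, against 735 and 3438 of the 18858 tested genes. Over all tested genes 0.0424% were called without the block (0.0424% higher and 0% lower) and 3.51% with it (1.36% higher and 2.14% lower). The 3 members with the block were Camkk2 (log2 fold change -0.17, SE 0.05, adjusted p = 0.0711), Camk2g (-0.17, SE 0.05, adjusted p = 0.0854) and Camkk1 (-0.35, SE 0.11, adjusted p = 0.111), each below its 0 h level in 3 of 3 replicates. Camk2g was the 1 member whose groups did not overlap, against 8.24% of the tested genes. DESeq2 called no member without a block and Camkk2 with the block (-0.17, adjusted p = 0.0476), and edgeR with the block called Camk2g once trends in GC content and transcript length were removed (-0.17, adjusted p = 0.0448). At an unadjusted p under 0.05 these fits had, in that order, 1, 3 and 3 members, against 808, 2944 and 3238 of the tested genes.

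Between 1 h and 6 h no member was called by edgeR without the block, where 3 had an unadjusted p under 0.05 and the lowest adjusted p was 0.200, and 7 were called with it. DESeq2 called 1 member, Camk2g, without the block and 5 with it. At an unadjusted p under 0.05 DESeq2 had 3 members without the block and 7 with it, against 3658 and 7645 of the 18858 tested genes. In the edgeR fit with the block Camk2a (-0.69), Camk2g (-0.18, SE 0.05, adjusted p = 0.0137) and Camk1d (-0.35, SE 0.10, adjusted p = 0.0161) fell. Camk4 (0.57), Camk2d (0.17, SE 0.06, adjusted p = 0.0447), Camk1 (0.18, SE 0.06, adjusted p = 0.0442) and Camkk2 (0.15, SE 0.05, adjusted p = 0.0220) rose. The share called over all tested genes was 2.14% without the block (1.48% higher and 0.663% lower) and 35.6% with it (18% higher and 17.5% lower). Camk1 was higher in 2 of 3 replicates, and the other 6 moved in their direction in 3 of 3. Of the 7 calls only those of Camk2a and Camk4 held when each replicate was left out. Camk2g was lost without replicate 1 (-0.14, adjusted p = 0.187) and without replicate 2 (-0.17, adjusted p = 0.105), and Camk1 likewise (0.13, adjusted p = 0.303, and 0.14, adjusted p = 0.275). Camkk2 was lost without replicate 1 (0.13, adjusted p = 0.218) and without replicate 2 (0.17, adjusted p = 0.112), and Camk1d without replicate 2 (-0.29, adjusted p = 0.131). Camk2d was lost without replicate 1 (0.18, adjusted p = 0.138) and without replicate 3 (0.08, adjusted p = 0.269). The groups did not overlap for Camk2d and Camk2g, against 22.2% of the tested genes.

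The genes with the time course most like that of Camk2a were looked for among 13606 genes with a mean of at least 1 CPM, by Pearson correlation of log2 CPM over the 9 libraries after the mean of each replicate was subtracted. The closest were Msh3, a mismatch repair gene (r = 0.998), Ccng1, a cyclin gene and p53 target (r = 0.997), and Mtdh (r = 0.996). The 9 points share libraries within replicates, and the values are a description. With the block the log2 fold changes at 6 h against 0 h were -0.46 for Msh3 (SE 0.05, adjusted p = 3.99e-05), -0.33 for Ccng1 (SE 0.05, adjusted p = 0.000201) and -0.34 for Mtdh (SE 0.05, adjusted p = 0.000155), all smaller than that of Camk2a.

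Upstream of the kinases, the calmodulin genes Calm2 and Calm3 were abundant and passed no threshold at 6 h against 0 h in either edgeR fit. Calm2 had 589, 555 and 548 CPM at 0 h and 592, 515 and 502 CPM at 6 h (log2 fold change with the block -0.07, SE 0.06, adjusted p = 0.380). Calm3 had 313, 300 and 341 CPM at 0 h and 333, 338 and 349 CPM at 6 h (0.10, SE 0.05, adjusted p = 0.156). Without the block their adjusted p was 0.759 and 0.657. Of the CaMKII inhibitor genes, Camk2n1 was lower in 3 of 3 replicates (6.88, 7.78 and 10.1 CPM at 0 h, 5.43, 7.02 and 7.68 CPM at 6 h) and fell with the block (-0.29, SE 0.08, adjusted p = 0.0136, and 0.566 without it). This call was lost without replicate 1 and without replicate 3 (highest adjusted p = 0.0986). Camk2n2 gave -0.01 (SE 0.10, adjusted p = 0.936).

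The list of calmodulin and other regulators held 19 genes, of which 18 were tested. At 6 h against 0 h 5 rose and 5 fell with the block, while without it 1 fell, where 17.4% of all tested genes rose and 17.5% fell with the block and 0.955% fell without it, and the median log2 fold change was 0.03 in both fits. The largest changes with the block were the rise of Camk1g, a CaMKI gene (0.78, SE 0.10, adjusted p = 6.41e-05), from 20.4, 7.73 and 7.69 to 28.2, 14.4 and 15.3 CPM, and the fall of Camkv, a catalytically inactive relative of the CaM kinases. Camkv went from 4.29, 4.16 and 3.88 CPM at 0 h to 2.19, 2.23 and 2.21 CPM at 6 h, without overlap, and was called in both fits (-0.89, adjusted p = 0.0191 without the block and 2.88e-05 with it). Its call without the block was lost when any 0 h or 6 h library was left out (highest adjusted p = 0.0951). It was also lost with no filter and with only the 6 libraries compared. With the block it held when each replicate was left out (highest adjusted p = 0.00153). Rcan2, a gene for a calcineurin inhibitor, rose (0.75, SE 0.07, adjusted p = 3.40e-06), and Ppp3r1, the calcineurin B subunit gene, fell (-0.32, SE 0.05, adjusted p = 0.000575). Without the block the adjusted p was 0.574 for Camk1g, 0.335 for Rcan2 and 0.0841 for Ppp3r1. At 1 h edgeR called no gene of the list, with 0 genes at an unadjusted p under 0.05 without the block and 2 with it, and DESeq2 called none. From 1 h to 6 h 6 rose and 3 fell with the block, and 1 fell without it. Over all tested genes 18% rose and 17.5% fell with the block in that comparison, and 0.663% fell without it.

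Among the 20 genes for targets of CaM kinases, all tested, 9 rose and 2 fell at 6 h against 0 h with the block, and 3 rose without it. Over all tested genes 17.4% rose and 17.5% fell with the block, and 1.46% rose without it. The median log2 fold change of the targets was 0.15 with the block and 0.17 without it, and 16 of the 20 were positive. The list holds 4 genes of class IIa histone deacetylases, which leave the nucleus when CaM kinases phosphorylate them, and 3 genes of the MEF2 factors that they repress. With the block Hdac5, Hdac7 and Hdac9 rose, while Hdac4 was at -0.0027 (adjusted p = 0.980). Mef2c and, by 0.18, Mef2d rose (adjusted p = 0.0261 for Mef2d), while Mef2a was at 0.12 (adjusted p = 0.0898). Hdac5 went from 62.3, 92.0 and 94.7 CPM at 0 h to 112, 131 and 136 CPM at 1 h and 223, 237 and 215 CPM at 6 h, and it rose at 1 h with the block (0.62, SE 0.09, adjusted p = 0.00192). At 6 h Hdac5 was 2.75 times its 0 h level (1.46, SE 0.09, adjusted p = 2.00e-07, and 0.00724 without the block). Mef2c went from 23.2, 22.2 and 19.3 to 91.7, 83.8 and 65.2 CPM at 6 h, a log2 fold change of 1.88 (SE 0.06, adjusted p = 2.18e-09, and 0.00316 without the block). Hdac7 was 2.51 times its 0 h level (1.33, SE 0.06, adjusted p = 1.23e-08, and 0.0185 without the block). Hdac9 went from 3.64, 17.2 and 7.58 to 35.2, 64.5 and 38.7 CPM (2.47, SE 0.18, adjusted p = 6.85e-07), but without the block its adjusted p was 0.111. The CREB coactivator gene Crebbp rose less with the block (0.27, SE 0.06, adjusted p = 0.00601, and 0.397 without it), while the genes that fell were Atf1 (-0.26) and Prkaa1 (-0.23), a CREB relative and an AMPK catalytic subunit, with adjusted p of 0.592 and 0.161 without the block. Prkaa1 also fell at 1 h with the block (-0.24, adjusted p = 0.0234), and without the block edgeR and DESeq2 called no target at 1 h, where 3 had an unadjusted p under 0.05 in each. From 1 h to 6 h 9 rose and 1 fell with the block, and 4 rose without it. The shares over all tested genes there were 18% higher and 17.5% lower with the block, and 1.48% higher without it.

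Of 24 genes for calcium entry and stores, 6 rose and 4 fell at 6 h against 0 h with the block, and 1, the store-operated channel gene Orai1, rose without it (0.47, adjusted p = 0.0426). These 10 of 24 genes compare with 34.9% of all tested genes called with the block. The median log2 fold change was 0.05 with the block and 0.04 without it. Grin2a, an NMDA receptor subunit gene, fell from 3.07, 3.53 and 0.430 CPM at 0 h to 1.03, 1.47 and 0.149 CPM at 6 h (-1.41, SE 0.15, adjusted p = 1.66e-05 with the block). As with Camk2a, replicate 3 was the lowest. Grin1, the obligatory NMDA receptor subunit gene (0.88, SE 0.15, adjusted p = 0.000655), Ryr3, a ryanodine receptor gene (0.87, SE 0.12, adjusted p = 0.000130), Atp2b4, a plasma membrane calcium pump gene (0.71, SE 0.07, adjusted p = 1.15e-05), and Cacna1b, the N-type channel gene (0.60, SE 0.09, adjusted p = 0.000171), rose. Without the block the adjusted p of these 5 genes was between 0.190 and 0.790. At 1 h edgeR called no gene of the list, with 0 genes at an unadjusted p under 0.05 without the block and 2 with it, and DESeq2 called none. From 1 h to 6 h 7 rose and 2 fell with the block, where 18% of all tested genes rose and 17.5% fell. Without it edgeR called none, with 2 at an unadjusted p under 0.05, and DESeq2 called 1. Some cell type markers were called in the same comparison. Of the neuron markers 8 of 10 were tested and 4 rose with the block at 6 h against 0 h (Syt1 by 1.63, Rbfox3 by 1.23, Tubb3 by 1.06 and Snap25 by 0.50 on the log2 scale), while without it edgeR called none, with 2 at an unadjusted p under 0.05, and DESeq2 called 1. With the block 3 of 9 NSC markers rose (Msi1, Slc1a3 and Egfr) and 2 fell (Nes and Vim), 2 of 4 tested ependymal markers fell (Foxj1 and Ccdc153), as did 2 of 3 endothelial markers (Kdr and Tek), 1 of 3 oligodendrocyte markers (Mobp) and the 1 microglial marker tested (Csf1r). Over all tested genes 17.4% rose and 17.5% fell with the block, and these lists are short. Mobp had 21 to 118 counts per library. Csf1r had only 3 to 20, and DESeq2 with the block did not call it. Without the block Msi1 was the 1 called marker among these lists. The part of these markers in the changes of the CaM kinase genes was not tested.

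**Figure D5:**
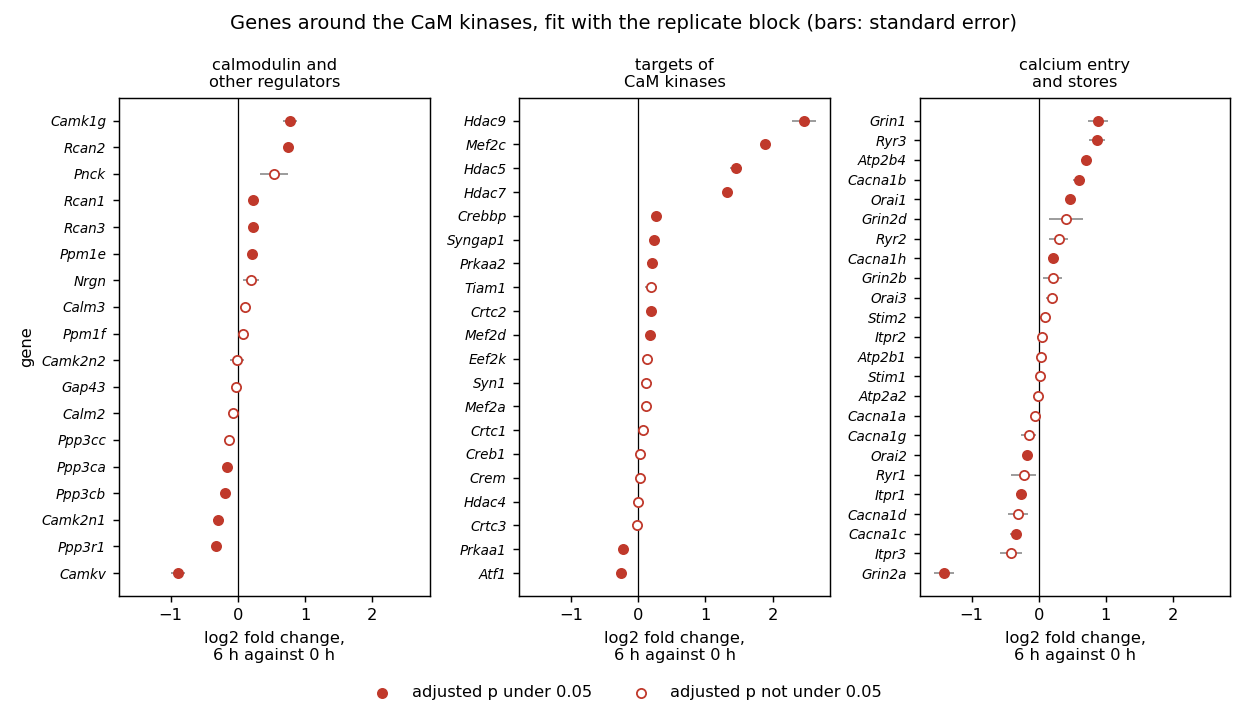
Log2 fold changes at 6 h against 0 h of the tested genes on 3 lists around the CaM kinases, in the fit with the replicate block. Points are genes, bars are standard errors and filled points have an adjusted p under 0.05; among the targets Hdac9, Mef2c, Hdac5 and Hdac7 stand at 1.33 or above, and the calmodulin genes Calm2 and Calm3 lie at -0.07 and 0.10.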

How the data were processed

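The data are counts of paired-end reads per Ensembl gene in 9 libraries of mRNA from differentiating NSCs. The authors aligned the reads to mm10 (GRCm38) and counted them with STAR 2.5.3a, deposited the counts without normalisation, and used DESeq2 1.22.1 for their own comparisons. Per the labels the library kit was stranded. Read quality was checked by the authors with FastQC. GENCODE M21 gave a symbol for 48144 of the 48526 genes. Of the genes 31382 had at least 1 count, and the lowest chi-square per degree of freedom between any pair of libraries was 12.5, so no library was a copy of another.

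Tests were run with edgeR 4.0.16 (glmQLFit and glmQLFTest, R 4.3.3), with the 9 libraries in 1 fit, filterByExpr (minimum count 10, minimum total count 15) and TMM scaling. The two-sided p-values were adjusted by the Benjamini-Hochberg method across the 18858 genes tested, with a threshold of 0.05. Common biological variation (BCV) came to 0.277 in the fit by time point and to 0.0627 once the replicate block was added. The replicate numbers come from the labels, which do not say what equal numbers share. They pair the samples, since the correlation of deviations from the time point means was above 0.1 in each of 9 pairs with the same number. Alternatives were DESeq2 1.42.0, other scalings and filters, fits of 6 libraries, an adjusted p under 0.01, fits after trends with GC content and transcript length were taken out (4 degrees of freedom per spline; values for 99.6% of the genes tested), and fits without single libraries or replicates.

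The members, gene lists and tests were chosen with earlier results of these data known. All 9 members are named, and of the lists the calmodulin and CaMKII inhibitor genes, plus up to 5 genes per list with the largest change at 6 h against 0 h among those called with the block, provided that their mean reached 1 CPM and all 3 replicates shared the direction. The 3 genes most like Camk2a, the member with the lowest p in the fit with the block, are also named. Genes named beyond that rule (Orai1, Atf1, Prkaa1, Hdac4, Mef2a, Mef2d and the cell type markers) were chosen after their values were seen. Intron retention was not analysed here, and 1 gene of the regulator list and 1 cell type marker are not reported here. Python 3.11.15 (pandas 2.3.3, numpy 2.4.6) and matplotlib 3.10.9 served for summaries and plots.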

Additional observations from a re-analysis of the deposited data

How the results depend on the processing

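The number of CaM kinase genes called depended on whether the replicate block was in the fit. At 6 h against 0 h it was 1 without the block and 6 with it, 6 in DESeq2 with the block, 7 with the block and trends in GC content and length removed, and 0 with no filter, with only the 6 libraries compared or at an adjusted p under 0.01. With a library left out of the fit without the block it was 0 to 1, and with a replicate left out of the fit with the block 4 to 7. At 6 h against 1 h it was 0 without the block, 7 with it, 1 in DESeq2, 5 in DESeq2 with the block and 6 with the block and trends removed. It was 0 in each fit without the block with a library left out, and 3 to 6 with a replicate left out of the fit with the block. At 1 h against 0 h it was 0, and 1 in DESeq2 with the block and with the block and trends removed. Over all tested genes the counts at 6 h against 0 h were 456 without the block, 6581 with it, 1742 in DESeq2 and 205 with no filter, and the cause was not tested. In that comparison DESeq2 with the block gave an unadjusted p under 0.05 for 6 members and for 7530 of the 18858 tested genes. With the block and trends removed in edgeR it was 8 members and 8615 genes.

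Directions turned in these cases, given as log2 fold changes. The fits with 1 library left out had no block, so they did not use the pairing of the replicates. In them Camk2b ranged from -0.084 to 0.40, Camkk1 from -0.56 to 0.013 and Camkk2 from -0.31 to 0.25 at 6 h against 0 h. At 6 h against 1 h the ranges were -0.054 to 0.35 for Camk1, -0.16 to 0.32 for Camk2b, -0.22 to 0.35 for Camkk1 and -0.14 to 0.43 for Camkk2. At 1 h against 0 h they were -0.082 to 0.34 for Camk1, -0.15 to 0.075 for Camk1d, -0.51 to 0.42 for Camk2a, -0.18 to 0.33 for Camk2b, -0.26 to 0.067 for Camk4 and -0.44 to 0.089 for Camkk2. Of the listed genes at 6 h against 0 h, Camk2n2 ranged from -0.18 to 0.19 and Ryr3 from -0.078 (without 6 h replicate 2) to 1.87. With 1 replicate left out of the fit with the block, the ranges were -0.17 to 0.083 for Camk1d (0.014 without replicate 2) and -0.19 to 0.0039 for Camk4 at 1 h against 0 h, and -0.031 to 0.027 for Camkk2 and -0.052 to 0.083 for Camk2n2 at 6 h against 0 h. In those fits at 6 h against 0 h Camk2b stayed between 0.15 and 0.27, and Camkk1 between -0.40 and -0.051. Ryr3 was called in each of the 6 settings with the block. With library totals, Camkk2 was 0.0077 at 6 h against 0 h. With trends removed, Camk1d was 0.036 at 1 h against 0 h (0.028 with the block as well), and at 6 h against 0 h Calm3 was -0.031 (-0.031).

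By the longest transcript in place of merged exons, the share of Camk2d in CaMKII was 10.03% at 0 h, 9.47% at 1 h and 10.26% at 6 h. Camk2a had 162 to 194 counts in the libraries of replicate 3, which limits the precision there.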
